A study of Mus musculus with 12 samples.

Results

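Tcstv1 (2-cell-stage, variable group, member 1) is a mouse gene of the two-cell embryo, and its RNA was followed here in 4 ES cell lines. The rule took every probe named Tcstv1 in its gene name or description, which gave 1 probe, A_65_P16847, together with A_65_P06115, a probe without a symbol. These are 2 of the 20280 probes of the array, and Tcstv1 is 1 of the 7138 genes with a symbol on it. The gene was picked because its level differed between the lines on these same arrays, and A_65_P06115 was named with these values known. The levels and differences of both are therefore given as a description and without a test.

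Tcstv1 belongs to the genes that the mouse embryo switches on when its own genome becomes active at the two-cell stage, and the gene table of mouse assembly GRCm38.p6 also lists its close relative Tcstv3. In ES cell culture a small, changing fraction of cells enters a state that resembles the two-cell embryo, in which Tcstv1, the Zscan4 family, Zfp352 and the transcription factor Dux are expressed together. A culture measured in bulk therefore gives an average over many cells without and few cells with this state, and more cells in that state cannot be told apart from more RNA per cell.

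The data come from 12 oligonucleotide arrays, each read in 2 colours. EB5 (wild-type), RKPG9 (Rex1+/-), HP3 (Rex1-/-) and HP4 (Rex1-/-) have 3 arrays each. Rex1, a zinc finger protein related to Yy1, is encoded by Zfp42. RKPG9 is a single clone in which a cassette joining a puromycin resistance gene with Egfp replaces the start of the Rex1 open reading frame on one allele, and Rex1-/- lines were obtained from it by selection in a high dose of puromycin. Others came from Rex1+/- cells with the same cassette, through another targeting vector selected by hygromycin. Which of these routes gave HP3 and HP4 is not given in the sources used here. All lines are named in the study as ES cells grown without feeders in serum and leukemia inhibitory factor, and no treatment or time course was applied. Nothing in the labels states that replicate arrays represent separate cultures, so the spread between them may be technical. EB5 and RKPG9 are the only lines of their genotypes, so Rex1 genotype cannot be told apart from differences between clones or cultures.

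Cy3 marked the ES cell RNA throughout, and Cy5 marked a mouse reference pool made from cultured cell lines, with no dye swap. Each level below is the log2 ratio of the line over this reference after background correction and loess normalization within the array. All 6 ES cell markers with a probe (Pou5f1, Nanog, Esrrb, Klf4, Utf1 and Dppa5a) were above the reference on every usable array, from 0.32 (lowest, Klf4) to 4.63 (highest, Pou5f1). Fgf4, on the wider pluripotency list below, lay about at the reference, from -0.13 to 0.07. Zfp42 itself, at its brighter probe A_65_P04537, read from 5.92 to 6.11 over the EB5, RKPG9 and HP3 arrays and 5.66, 5.43 and 5.24 on those of HP4. Only the start of the reading frame was replaced, and where the probe lies in the gene is not given, so this level does not check the genotypes. By northern blot, the study found no wild-type transcript in Rex1-/- cells but a larger one from the altered allele. Its western blot showed no Rex1 band in knockout cells. Spot extraction for EB5 was run separately, with the global background adjustment of the scanner software on, so EB5 against any other line cannot be told apart from one extraction run against another. For RKPG9, HP3 and HP4 it was off and the run was shared.

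Tcstv1 RNA was high in wild-type EB5, lowest in the Rex1+/- line RKPG9, in the range of EB5 in one Rex1-/- line, HP3, and between these levels in the other, HP4. At A_65_P16847 the EB5 arrays had log2 ratios of 2.03, 1.90 and 1.93, and the RKPG9 arrays -0.13, -0.21 and -0.26. HP3 gave 1.93, 2.20 and 2.06, and HP4 gave 1.00, 1.08 and 1.08. The RKPG9 arrays thus lay slightly below the reference, while all arrays of the other lines lay at or above 1.00. The mean of EB5 was 1.96 ± 0.07 (SD, n = 3), or 3.88 times the reference. That of RKPG9 was -0.20 ± 0.06 (0.871 times), that of HP3 2.06 ± 0.14 (4.18 times) and that of HP4 1.05 ± 0.04 (2.08 times). In rising order the lines were RKPG9, HP4, EB5 and HP3.

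The step from RKPG9 to HP4 was 1.25 on the log2 scale (SE 0.04, 2.38-fold), and the nearest arrays of these lines were 1.13 apart. HP4 was below EB5 by a log2 difference of -0.90 (SE 0.05, 1.87-fold) with a gap of 0.82 between the nearest arrays. HP3, at the top of the order, was 0.11 (SE 0.09) above its neighbour EB5, and their arrays overlapped. The difference was -2.15 (SE 0.05, 4.45-fold) in RKPG9 against EB5, 2.26 (SE 0.09, 4.79-fold) in HP3 against RKPG9 and -1.01 (SE 0.08, 2.01-fold) in HP4 against HP3.

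The arrays of the lines did not overlap in 5 of the 6 comparisons, but this is common on these arrays. Of all probes, the arrays did not overlap for 53.8% in HP4 against EB5, 49.4% in RKPG9 against EB5, 39.7% in HP3 against RKPG9, 51.2% in HP4 against RKPG9 and 42.9% in HP4 against HP3, and for 46.4% in HP3 against EB5. The sizes were less common. In HP3 against RKPG9 the Tcstv1 probe had the 3rd largest rise of 20274 probes, and 0.0148% of probes moved as far or farther in either direction. In RKPG9 against EB5 it had the 6th largest fall of 20240 probes, and in HP4 against HP3 the 5th largest fall of 20279. In HP4 against EB5 it had the 71st largest fall, and in HP3 against EB5 45.1% of probes moved as far or farther. These ranks describe the values that chose the gene.

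**Figure D1:**
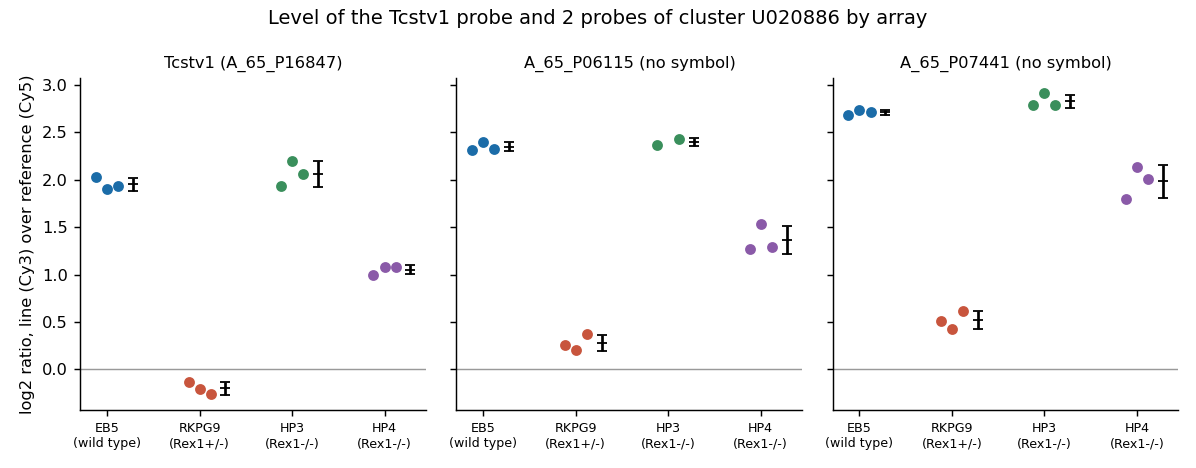
Log2 ratio of each line over the reference RNA at the Tcstv1 probe and at the 2 probes of cluster U020886, with 1 point per usable array and the mean with its SD (bar) beside the points. At all 3 probes RKPG9 is lowest and HP4 second lowest, while EB5 and HP3 lie at the top, close to 2.0 for Tcstv1 and between 2.3 and 2.9 for the other probes.

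The unnamed probe A_65_P06115 gave the same order of lines. It was named with the values of these arrays known, so this likeness is not independent support. EB5 gave 2.31, 2.40 and 2.33, RKPG9 gave 0.26, 0.21 and 0.37, and HP4 gave 1.27, 1.53 and 1.29. In HP3 it read 2.37 and 2.43 on replicates 2 and 3, while the spot of replicate 1 bore an outlier mark for unevenness and was left out (2.25 with it kept). RKPG9 was thus lowest, HP4 intermediate, and HP3 overlapped with EB5. The mean was 0.28 ± 0.08 for RKPG9, 1.36 ± 0.15 for HP4, 2.35 ± 0.04 for EB5 and 2.40 ± 0.05 (n = 2) for HP3. The difference was -2.07 in RKPG9 against EB5 (SE 0.05), 2.12 in HP3 against RKPG9 (SE 0.06), 1.09 in HP4 against RKPG9 (SE 0.10) and -1.04 in HP4 against HP3 (SE 0.09). HP3 and EB5 differed by 0.05 (SE 0.04).

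The array's annotation describes A_65_P06115 as unknown and puts it in the transcript cluster U020886, while the Tcstv1 probe is in cluster U040298. Cluster U020886 holds 1 more probe, A_65_P07441, from another clone (C0305G11-3 against C0407B02-3), which the rule did not use. It was taken up here for its cluster after the pattern at A_65_P06115 was known, and it too is given without a test. EB5 gave 2.68, 2.74 and 2.71, RKPG9 gave 0.51, 0.43 and 0.62, HP3 gave 2.79, 2.91 and 2.79 and HP4 gave 1.80, 2.14 and 2.01. The order of lines was again RKPG9, HP4, EB5 and HP3. HP3 was 2.31 above RKPG9, the largest rise of all 20274 probes in that comparison, and HP4 was 0.73 below EB5 (a log2 difference of -0.73).

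How alike 2 probes were was measured as the root mean square difference of their log2 ratios over the arrays, after each was set to its own mean. Over the 11 arrays usable for all 3, this was 0.13 between the Tcstv1 probe and A_65_P06115, 0.13 between the Tcstv1 probe and A_65_P07441, and 0.16 between A_65_P06115 and A_65_P07441. The Tcstv1 profile itself varied by 0.91 about its mean. Both unnamed probes were taken up with values of these arrays known, so their likeness was not an independent check. None of the files used here holds a probe sequence, so whether the 2 clusters are the same transcript, or whether these probes also bind RNA of Tcstv3 or other relatives, was not tested, and a level here may be that of several copies of the family.

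The difference between the lines was in the Cy3 channel, and the reference channel varied less. Before any normalization, the Cy3 brightness of the Tcstv1 spot minus its local background was 1068, 989 and 1262 for EB5, 219, 219 and 200 for RKPG9, 912, 1053 and 1004 for HP3 and 265, 279 and 307 for HP4. RKPG9 and HP4 were dim and lay close together, EB5 and HP3 bright and close together. The spot was well above background in both channels on all 12 arrays and carried no outlier mark. The Cy5 brightness of the reference ranged from 816 to 906 beside EB5, from 635 to 679 beside RKPG9, from 586 to 722 beside HP3 and from 613 to 656 beside HP4. After quantile normalization of the average intensity between arrays, the reference signal of Tcstv1 was 8.78 ± 0.03 for EB5, 8.63 ± 0.03 for RKPG9, 8.69 ± 0.21 for HP3 and 8.64 ± 0.10 for HP4 on the log2 scale. The Cy3 signal on that scale was 10.73 ± 0.04, 8.43 ± 0.05, 10.76 ± 0.08 and 9.69 ± 0.07 for the same lines.

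**Figure D2:**
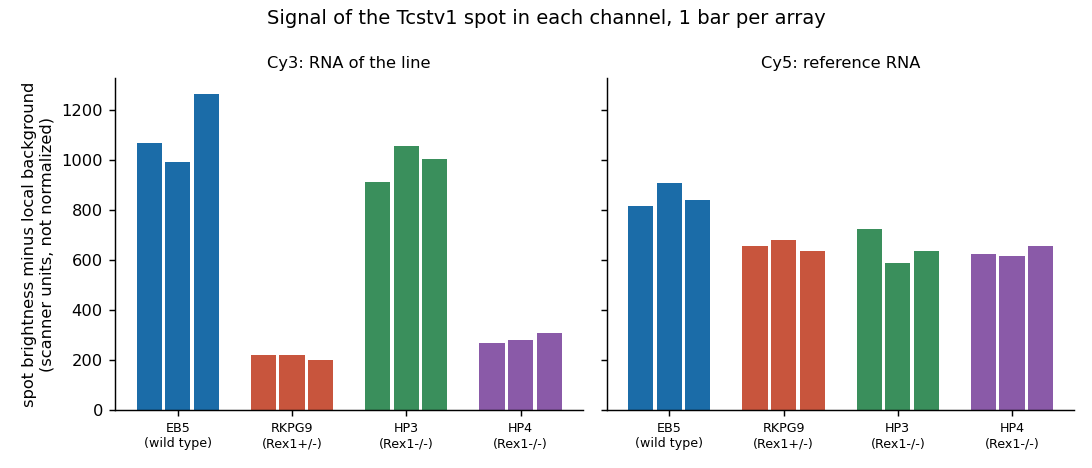
Brightness of the Tcstv1 spot minus its local background, in scanner units without normalization, for the line (Cy3, left) and the reference RNA (Cy5, right), with 1 bar per array. The Cy3 bars of RKPG9 (200 to 219) and HP4 (265 to 307) are far below those of EB5 and HP3 (912 to 1262), while the Cy5 bars lie between 586 and 906 in every line.

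The height of HP4 between RKPG9 and the other lines depended on the scaling. The HP4 arrays were dimmer as a whole in Cy3, with a median brightness over background of 86 to 90 against 137 to 140 in RKPG9, 115 to 139 in HP3 and 146 to 178 in EB5. Before loess the log2 ratio of Tcstv1 was -1.23, -1.15 and -1.11 in HP4 and -1.53, -1.58 and -1.62 in RKPG9, but 0.28 to 0.76 in HP3 and 0.08 to 0.54 in EB5. Loess then raised this spot by 2.19 to 2.24 on the HP4 arrays and by 1.36 to 1.82 on the other 9. HP4 stood above RKPG9 by 1.25 as given above, by 1.49 with the processed signals, which the scanner's own software had corrected and scaled, by 0.81 with median centring in place of loess and by 0.60 without background subtraction. Under all 8 ways of processing that gave values for single arrays, the RKPG9 arrays were below all others and the HP4 arrays below those of EB5 and HP3 at the Tcstv1 probe. At A_65_P06115 the HP4 arrays reached 2.96 and overlapped those of EB5, which began at 2.93, with the processed signals, and they overlapped in the authors' table of levels as well.

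**Figure D3:**
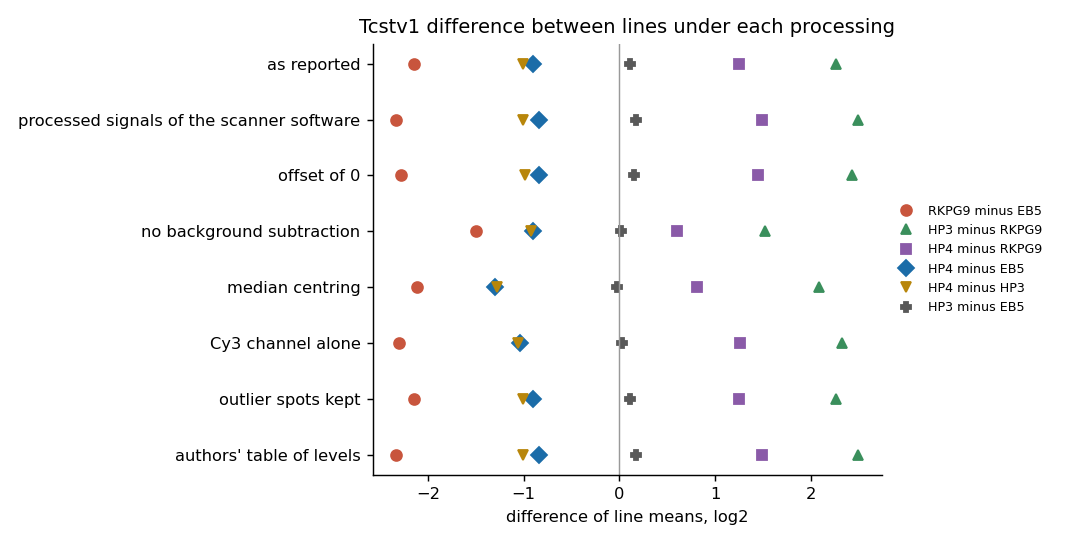
Difference of Tcstv1 between line means on the log2 scale (x axis) for the 6 comparisons under the processing as reported and 7 alternatives (rows). RKPG9 stays lowest throughout, while HP4 minus RKPG9 runs from 0.60 to 1.49 and HP3 minus EB5 stays between -0.02 and 0.17.

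Few other genes of cells that resemble the two-cell embryo were named on the array, where 11082 of the 20280 probes have no symbol. Of 53 further genes on the list, which holds Tcstv3, the Zscan4 family, Dux, Zfp352 and the Usp17l and Tdpoz families, only 2 had a named probe. The array annotation named no probe for Tcstv3 or Zscan4.

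Usp17la (Dub1 in the array annotation), a deubiquitinating enzyme, was low but well above background in Cy3 on all 12 arrays at A_65_P02746. Its log2 ratio was 0.72, 0.67 and 0.57 for EB5, -0.04, -0.10 and 0.09 for RKPG9, 0.58, 0.71 and 0.25 for HP3 and 0.04, 0.26 and 0.20 for HP4. The EB5 and HP3 arrays reached highest and the RKPG9 arrays were lowest, with the highest of them (0.09) above the lowest of HP4 (0.04). In limma, Usp17la fell by 0.67 in RKPG9 against EB5 (adjusted p = 0.00032), a comparison in which 34.4% of all probes passed. It rose by 0.53 in HP3 against RKPG9 (adjusted p = 0.0025), where 22.8% of probes passed, a call lost in the Cy3 channel alone (0.28, adjusted p = 0.33). It fell by 0.49 in HP4 against EB5 (adjusted p = 0.0025), where 45.1% passed. In HP4 against HP3 it fell by 0.35 (adjusted p = 0.026), where 28.6% passed. It no longer passed from Cy3 only (-0.28, adjusted p = 0.33) or without HP3 replicate 1, HP3 replicate 2 or HP4 replicate 1 (adjusted p = 0.074, 0.099 and 0.093). The change was -0.14 in HP3 against EB5 (adjusted p = 0.32, with 30.8% of probes passing) and 0.19 in HP4 against RKPG9 (adjusted p = 0.17, with 40.1% passing). The latter passed with the processed signals (0.55, adjusted p = 0.01), with median centring (0.58, adjusted p = 1.5e-05) and in the authors' table (0.55, adjusted p = 0.011). Usp17la belongs to a family of near-identical genes that a probe may not tell apart. With median centring the change in HP4 was 0.03 against EB5 and 0.01 against HP3. Every change of Usp17la was smaller than 2-fold.

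Slc34a2, a phosphate transporter, was not well above background in Cy3 on any array at either of its probes, and it passed in none of the 6 comparisons (adjusted p of 0.57 to 0.98 at A_65_P13774). No fold is given for it.

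The probes with a symbol nearest to Tcstv1 in profile over the 12 arrays were Rpl39l, Cdkn1c, Cnn2, 4930447C04Rik and Nexn. They were looked up among 19050 probes usable on every array and, being chosen for this likeness, have no test. Rpl39l, a paralog of the ribosomal protein Rpl39, was nearest with a root mean square difference of 0.41, and its line means were -0.31 (EB5), -1.60 (RKPG9), 0.01 (HP3) and -0.28 (HP4). Cdkn1c, an imprinted inhibitor of cyclin-dependent kinases, was at 0.47 from Tcstv1 with means of 2.94, 1.75, 2.82 and 2.49. Cnn2, a calponin that binds actin, was also at 0.47, with means of 0.06, -1.53, -0.50 and -0.54. The gene 4930447C04Rik (difference 0.48) had means of 2.85, 1.96, 3.30 and 2.66, and Nexn, an actin-binding protein of muscle (difference 0.50), had means of 0.00, -1.32, -0.41 and -0.56. All 5 were lowest in RKPG9. HP4 was below HP3 by a log2 difference of -0.29 for Rpl39l, -0.32 for Cdkn1c, -0.04 for Cnn2, -0.64 for 4930447C04Rik and -0.15 for Nexn, beside -1.01 for Tcstv1.

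Among the 10 nearest probes 6 had no symbol. A_65_P07441 of cluster U020886 came first by far, with a difference of 0.12, followed by A_65_P15691 at 0.35. The others were A_65_P18430 (0.46), A_65_P20638 (0.47), A_65_P17146 (0.48) and A_65_P02568 (0.49). Of the 19050 probes, 174 had every RKPG9 array below every HP4 array and every HP4 array below those of EB5 and HP3. In 7 of these, RKPG9 was also more than 2-fold below the mean of EB5 and HP3, and these were the Tcstv1 probe, A_65_P07441, A_65_P20638, A_65_P15116 and the probes of Prtg, Cdkn1c and Cebpd. A_65_P06115 could not be counted for want of 1 array. The drop in RKPG9 against the mean of EB5 and HP3 was -2.21 for Tcstv1 and -2.25 for A_65_P07441, and -1.07 to -1.17 for the other 5.

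**Figure D4:**
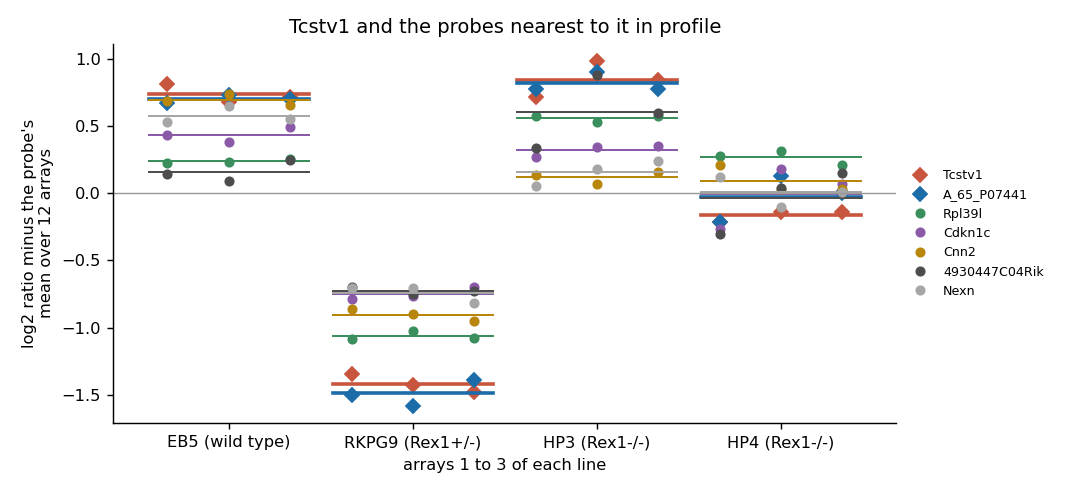
Log2 ratio of Tcstv1, of A_65_P07441 and of the 5 nearest probes with a symbol, each minus its mean over the 12 arrays (points, arrays 1 to 3 of each line; short lines, line means). All have their lowest line mean in RKPG9, and Tcstv1 and A_65_P07441 drop furthest there and show the clearest step from HP4 to HP3 (1.01 and 0.85 on the log2 scale).

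Genes known to hold back or promote the two-cell-like state were measured more fully. Of 40 such regulators, 27 had a named probe. These include the repressors Trim28 and Setdb1, the chromatin assembly factor subunit Chaf1a and the activators Dppa2 and Dppa4. The repressor Kdm1a and the subunit Chaf1b were listed but had none. In RKPG9 against EB5, 5 rose, 7 fell and 15 did not pass, or 44.4% called against 49.7% of all genes with a symbol. In HP3 against RKPG9, 7 rose, 2 fell and 18 did not pass, or 33.3% against 34%. The median change was 0.00 and 0.03, beside -0.07 and 0.01 for all genes with a symbol. In HP4 against RKPG9, 5 rose and 9 fell (51.9% called against 51.8%), and in HP4 against HP3, 2 rose and 12 fell (51.9% against 36.9%). In HP3 against EB5, 6 rose and 4 fell (37% against 43.8%), and in HP4 against EB5, 4 rose and 12 fell (59.3% against 55%). These counts, those of the dimmer HP4 arrays included, were not repeated under other scalings.

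The largest change among the regulators was that of Dppa3, a maternal factor that shields the methylation pattern of the early embryo, with means of 4.68 (EB5), 4.42 (RKPG9), 4.13 (HP3) and 3.57 (HP4). It fell by 1.11 in HP4 against EB5 (adjusted p = 9.6e-05 in limma). Its levels thus followed another order than those of Tcstv1, with HP4 lowest. Atrx, a chromatin remodeller, fell by 0.53 and Nelfa, a subunit of the negative elongation factor, rose by 0.62 in HP4 against EB5 (adjusted p = 4e-07 and 2.7e-06). Both calls were lost in the Cy3 channel alone (-0.22, adjusted p = 0.077, and 0.21, adjusted p = 0.07), and that of Nelfa also with median centring (0.09, adjusted p = 0.3). The probes of Atrx did not move together in this comparison. Atrx also fell at A_65_P10857, by 0.64 (adjusted p = 6.8e-07), but rose by 0.19 at A_65_P08259 (adjusted p = 0.015). Zfp42 fell by 0.58 in HP4 against RKPG9 (adjusted p = 0.00024) but not with the processed signals (-0.35, adjusted p = 0.064). In HP3 its change was 0.01 against EB5 and -0.04 against RKPG9 (adjusted p = 0.95 and 0.83), though without background subtraction these were -0.32 and -0.51 (adjusted p = 0.0043 and 0.00013).

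Oocyte and maternal genes, whose RNA the egg hands on to the embryo, were listed as the stage next to the two-cell embryo. Of 40 listed, 18 were measured. In RKPG9 against EB5, 2 rose and 6 fell (44.4% against 49.7% of all genes with a symbol), and in HP3 against RKPG9, 2 rose, 0 fell and 16 did not pass (11.1% against 34%). Median changes were -0.01 and 0.02. Dazl, an RNA-binding protein of germ cells, had means of 0.67 (EB5), 0.31 (RKPG9), 0.96 (HP3) and 0.63 (HP4), and it rose by 0.65 in HP3 against RKPG9 (adjusted p = 8e-06). Ooep, a component of the subcortical maternal complex, rose by 0.79 in HP3 against EB5 (adjusted p = 9e-07). Zp2, a protein of the zona pellucida, rose by 0.47 in HP4 against EB5 (adjusted p = 3.7e-05), and Nobox, a homeobox factor of oocytes, by 0.43 in the same comparison (adjusted p = 0.0019). In the Cy3 channel alone Zp2 and Nobox no longer passed (0.13 and 0.21, adjusted p = 0.41 and 0.14).

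Telomere genes were included because ES cells in the two-cell-like state are known to lengthen their telomeres. Of 27 listed, 15 were measured. Of these, 6 rose and 2 fell in RKPG9 against EB5 (53.3% against 49.7%), and in HP3 against RKPG9, 2 rose and 6 fell (53.3% against 34%), with medians of 0.10 and -0.10. Nhp2, a subunit of the ribonucleoprotein that holds the telomerase RNA, rose by 0.66 in HP3 (2 usable arrays) against RKPG9 (adjusted p = 9.2e-07). In HP4 against RKPG9, Nbn, a sensor of DNA breaks, fell by 0.39 and Tnks2, a tankyrase, by 0.32 (adjusted p = 6.1e-07 and 5.4e-05). Wrn, a RecQ helicase, was well above background in RKPG9 but on none of the HP3 arrays. By the line means in the Cy3 channel it was at least 1.18-fold higher in RKPG9. This bound makes no allowance for the spread between arrays. The adjusted p of 0.016 from limma belongs to the log2 ratio. That call was lost without RKPG9 replicate 2, HP3 replicate 1 or HP3 replicate 2 (adjusted p = 0.064, 0.069 and 0.054). It was also lost under 5 other settings, the Cy3 channel alone among them (adjusted p = 0.13).

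Among pluripotency genes, 15 of 20 were measured. In RKPG9 against EB5, 6 rose and 1 fell (46.7% against 49.7% of all genes with a symbol), with a median of 0.24. In HP4 against HP3, 0 rose and 10 fell (66.7% against 36.9%), with a median of -0.34, and in HP4 against RKPG9, 1 rose and 11 fell (80% against 51.8%). Of all genes with a symbol, 1313 rose and 1324 fell in the former comparison, and 1940 rose and 1755 fell in the latter. The HP4 arrays were dimmer as a whole in Cy3, and these list counts were not repeated under other scalings. Over all probes, 5806 were called in HP4 against HP3, but 1339 in Cy3 alone and 14310 with median centring. Tcl1, a coactivator of Akt kinases, rose by 1.25 in RKPG9 (2 usable arrays) against EB5 (adjusted p = 9.5e-06), the line and comparison in which Tcstv1 was 2.15 lower. In HP4 against RKPG9, Klf5, Esrrb and Nr5a2, transcription factors of the ES cell network, fell by 0.75, 0.67 and 0.66 (adjusted p = 2.1e-07, 0.00015 and 0.00011). These are their brightest probes. The dimmer Esrrb probe A_65_P09667 did not share the fall, with 0.85, 0.37 and 0.41 in HP4 and 0.51, 0.45 and 0.37 in RKPG9. The dimmer Nr5a2 probe A_65_P12283 was lower in HP4 (0.59 to 0.67) than in RKPG9 (1.22 to 1.45).

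**Figure D5:**
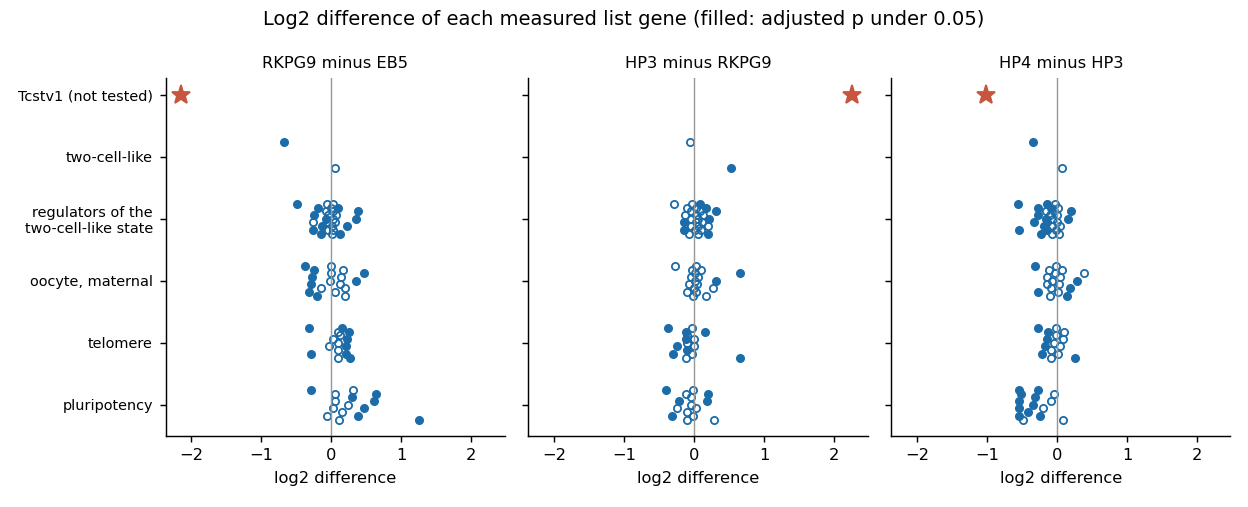
Log2 difference of every measured gene of 5 lists in RKPG9 against EB5, HP3 against RKPG9 and HP4 against HP3, with genes at an adjusted p under 0.05 in limma filled and Tcstv1 as a star, which was not tested. Tcstv1, which was chosen for such differences, lies at -2.15, 2.26 and -1.01, beyond every gene of these 5 lists in each panel. Markers of trophoblast and primitive endoderm are not shown, among them Krt18 with means of -0.56 (EB5) and -3.08 (RKPG9). Usp17la is the filled point of the two-cell-like list in all 3 panels.

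Markers of other cell types were examined beside these levels. Of 12 trophoblast markers 8 were measured, and their mean log2 ratio ranged from 0.01 to 0.07 on the EB5 arrays. It was lower in the other lines, from -0.48 to -0.46 (RKPG9), from -0.58 to -0.50 (HP3) and from -0.55 to -0.46 (HP4). Most of this gap lay in 2 keratins, Krt18 with means of -0.56 (EB5), -3.08 (RKPG9), -3.16 (HP3) and -2.66 (HP4) and Krt7 with means of -0.38, -1.58, -1.64 and -1.39. Without them, a choice made after these values were seen, the mean of the other 6 markers was 0.19 to 0.24 (EB5), 0.14 to 0.15 (RKPG9), 0.02 to 0.26 (HP3) and -0.03 to 0.04 (HP4). HP3 reached the range of EB5 only on replicate 2, whose mean lacks Cdx2 because that spot was left out. Cdx2 read -0.82 and -0.98 on the other HP3 arrays, so this value is not over the same genes. The HP3 arrays with every marker lay below those of EB5. Of the 8, 1 rose and 5 fell in RKPG9 against EB5 (75% called against 49.7% of all genes with a symbol), and in HP3 against RKPG9, 0 rose and 1 fell (12.5% against 34%). All 8 were well above background on at least 1 array in EB5 and RKPG9, while Eomes was not in HP3 and Eomes and Hand1 were not in HP4. Krt18 and Krt7 had the largest changes, falling by 2.60 and 1.25 in HP3 against EB5 (adjusted p = 3e-10 and 1.3e-08), and Tfap2c, a transcription factor of trophoblast and germ cells, fell by 1.11 in HP4 against RKPG9 (adjusted p = 5.5e-07). Gata3 fell by 0.63 in HP3 against EB5 (adjusted p = 2.5e-05), a call lost in the Cy3 channel alone (-0.16, adjusted p = 0.16).

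Of 14 primitive endoderm markers 13 were measured, with means from -0.62 to -0.56 (EB5), -0.64 to -0.58 (RKPG9), -0.70 to -0.65 (HP3) and -0.58 to -0.51 (HP4). Of the 13, 2 rose and 4 fell both in RKPG9 against EB5 and in HP3 against RKPG9, which is 46.2% called each time, against 49.7% and 34% of all genes with a symbol. Of these markers, Gata4 was not well above background in RKPG9, HP3 or HP4, Ttr not in RKPG9 or HP3, and Foxa2 not in EB5, HP3 or HP4. In the Cy3 channel Foxa2, a forkhead factor, was at least 1.62-fold higher in RKPG9 than in HP3. This bound is the mean of RKPG9 over the higher of each HP3 array's dimmest probe above background and the signal of Foxa2 there. It too makes no allowance for the spread between arrays. The adjusted p of 7.1e-07 from limma belongs to the log2 ratio. Pdgfra, a growth factor receptor, and Lamb1, a laminin chain, rose by 0.86 and 0.84 in HP4 against RKPG9 (adjusted p = 5.9e-06 and 2.6e-08), and Lama1, another laminin chain, rose by 0.68 in RKPG9 against EB5 (adjusted p = 1.3e-05). The rise of Lamb1 is that of its brightest probe, A_65_P12534. Its probe A_65_P09952 read -0.02 to 0.06 in HP4 and -0.16 to -0.08 in RKPG9. At its probes A_65_P03313 and A_65_P15896 the arrays of these lines overlapped. The part of either cell type in the Tcstv1 levels was not tested.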

How the data were processed

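RNA of EB5, RKPG9, HP3 and HP4 was measured on 12 two-colour arrays of a National Institute on Aging mouse design, 3 per line. The intensities deposited by the authors are spot means and local background medians from Agilent Feature Extraction 7.5.1, with processed signals beside them. The deposited log10 ratio is Cy5 over Cy3, and the sign was turned here. The authors' table of levels, on a log10 scale and without stated centring, followed minus that ratio plus a level per probe within 0.01 for 93.82 to 95.90% of the values of an array, with column medians of 2.87 or 2.88.

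Signals were corrected by normexp (offset 50) and normalized within arrays by loess fitted without control spots. The 1824 probe spots with an outlier mark took part in these steps and were left out afterwards. Differences are log2 values computed from the deposited intensities. All 12 arrays entered one limma 3.58.1 fit (R 4.3.3) with 8 residual degrees of freedom, called at a Benjamini-Hochberg adjusted p under 0.05 over all probes. Names were updated through the RefSeq table of GRCm38.p6 (Python 3.11.15, pandas 2.3.3, matplotlib 3.10.9 for plots): 4326 probes kept a current symbol, 4126 were updated, 2 were named by accession, 744 kept an unlisted symbol and 11082 had none. The probe that this table would call Krt72 through an old symbol shared with keratin 8 was not used. The brightest probe stood for a gene. The genes named are the Tcstv1 probes, all measured two-cell-like genes, the nearest profiles, up to 4 members of each list with the largest change among those called, and Zfp42.

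The members and lists were chosen with earlier results of these data known. On 19050 simulated probes for HP3 against EB5, 41 of 50 probes changed by 0.5 were called, as were 50 of 50 at 1.2, 1.5 and 3, and 9 of 18850 unchanged ones. The simulated arrays had independent noise without any effect of array, clone or extraction run. Those counts therefore do not measure false calls on the real arrays. The number of arrays limits the precision, and p-values measure the spread between arrays. The alternatives changed the background step (an offset of 0, or none subtracted), the scaling (processed signals, median centring, or Cy3 without the reference), the spots used (outliers kept, dim probes dropped), the source (the values tabulated by the authors) and the fit (only the lines compared, a replicate block, arrays left out singly). Where only 1 line of a comparison was above background, a bound from the Cy3 channel is given.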

Additional observations from a re-analysis of the deposited data

How the results depend on the processing

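The order of the line means at the Tcstv1 probe held under every alternative except for HP3 against EB5, which was -0.02 with median centring. The sizes moved beyond the spread between replicates as follows, and the cause was not tested. RKPG9 against EB5 was -2.33 with the processed signals and in the authors' table, -2.28 with an offset of 0, -1.50 when no background was subtracted and -2.30 from Cy3 only. HP3 against RKPG9 was 2.50 with the processed signals and in the table, 2.43 with an offset of 0, 1.52 when no background was subtracted and 2.09 with median centring. HP4 against RKPG9 was 1.49 with the processed signals and in the table, 1.45 with an offset of 0, 0.60 without background subtraction and 0.81 with median centring. HP4 against EB5 was -1.30 with median centring and -1.04 in Cy3 alone, and HP4 against HP3 was -1.28 with median centring. Leaving out each array in turn gave 0.04 to 0.18 for HP3 against EB5, -0.93 to -0.86 for HP4 against EB5, -2.19 to -2.12 for RKPG9 against EB5, 2.19 to 2.33 for HP3 against RKPG9, 1.22 to 1.29 for HP4 against RKPG9 and -1.08 to -0.94 for HP4 against HP3.

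Of the 2 measured two-cell-like genes, 0 passed in HP3 against EB5 and HP4 against RKPG9 and 1 (Usp17la) in each other comparison. The count was 2 in HP4 and in RKPG9 against EB5 in the authors' table, and 0 in HP3 against RKPG9 and in HP4 against HP3 in Cy3 alone. It was 0 in HP4 against HP3 when only these lines were fitted, and 0 to 1 there when an array was left out. In HP4 against RKPG9 it was 1 with the processed signals and in the table and 2 with median centring. Usp17la turned to 0.03 in HP4 against EB5 and to 0.01 in HP4 against HP3 with median centring, and Zfp42 in HP3 against EB5 to -0.32 when no background was subtracted and -0.58 in Cy3 alone.

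The arrays were treated as unpaired, and the values left it unsettled whether replicate numbers pair them. Of 18 correlations between the deviations of same-numbered arrays of different lines, 4 were over 0.1 (range -0.18 to 0.19), and 7 of 12 arrays correlated best with their own number. With the replicate number as a block, Tcstv1 in RKPG9 against EB5 stayed at -2.15 and the number of probes called in that comparison was 6958 against 6956. With median centring HP4 against HP3 had 14310 probes called against 5806, and in Cy3 alone 1339. The share of rises among the probes called in HP3 against EB5 was 2312 of 6238, and 2745 of 5494 in Cy3 alone and 1840 of 7524 with median centring. In RKPG9 against EB5 it was 2538 of 6956, and 2594 of 5469 in Cy3 alone, and in HP3 against RKPG9 it was 2574 of 4619, and 1196 of 3080 with median centring. In Cy3 alone 1862 probes were called in HP3 against RKPG9 and 4107 in HP4 against RKPG9, against 4619 and 8141. With median centring 16106 were called in HP4 against EB5 and 15563 in HP4 against RKPG9, against 9137 and 8141. Signal over background limits Slc34a2, the count of 2 genes in the table and with median centring included.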
